A study of Mus musculus with 4 samples.

Results

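The mitochondrial genome of the mouse carries 37 genes, and all of them were found among the 55401 gene rows counted in each library. The genes were selected by name, as every row whose Ensembl identifier maps to a mouse symbol that starts with mt-. They comprise 13 mRNA genes, 2 rRNA genes and 22 tRNA genes. RNA had been sequenced from 4 libraries of C57BL/6 mice. They were a CLP kidney, a CLP + MLT kidney, a CLP heart and a CLP + MLT heart, with 1 library in each group. CLP (cecal ligation puncture) lets gut bacteria leak into the abdomen and is a model of sepsis, and MLT is melatonin, a hormone of the pineal gland. All groups had undergone CLP, so no library represents healthy tissue. For the kidneys, the methods of the study describe male mice aged 8 weeks that drank 25 μg/ml melatonin (dissolved with ethanol) in their water for 14 days before CLP, and kidneys that were taken 24 h after it. Neither dose nor time is given for the hearts. The names of both melatonin libraries carry MLT4, whose number is not explained, and the sources used here do not say how many mice stand behind a library. The comparison asked how mitochondrial RNA differed between septic tissue with and without melatonin. With 1 library a group no difference could be set against the spread between mice, so no test was possible and no p-value is given.

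Mitochondrial DNA is a small circle that is transcribed from both strands into long precursor RNAs. The tRNAs lie between the mRNAs and rRNAs and are cut out of the precursors, which frees the mRNAs and rRNAs, and most mRNAs then receive a short poly(A) tail inside the mitochondrion. The 13 proteins are core subunits of the respiratory chain and of the ATP synthase, and the rRNAs and tRNAs build them on mitochondrial ribosomes. Proximal tubule cells of the kidney and cardiomyocytes of the heart are both rich in mitochondria, because salt transport and contraction consume much ATP.

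Between 15883057 and 22927905 reads were counted on genes per library. The RNA had been enriched with poly-T beads, so tRNAs, rRNAs and unfinished precursors are only partly represented. The 13 mRNA genes held 14.1% of the counted reads in the CLP kidney and 23.2% in the CLP + MLT kidney. In heart they held 27.6% without and 31.9% with melatonin. The rRNA genes held 0.565% and 0.959% in kidney, and 3.73% and 3.84% in heart. The tRNA genes held 0.135% and 0.134% in kidney, and 0.323% and 0.234% in heart. The share of mRNA and rRNA reads was therefore higher with melatonin in both tissues, by more in kidney than in heart, and that of tRNA reads was nearly equal in kidney and lower in heart. In each library mt-Ts1 held more reads than any other tRNA gene, so the class totals do not speak for the single tRNA genes. Exact Clopper-Pearson 95% intervals of these shares cover counting error only and were narrow, for example 0.231% to 0.236% for the tRNA genes of the CLP + MLT heart.

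**Figure D1:**
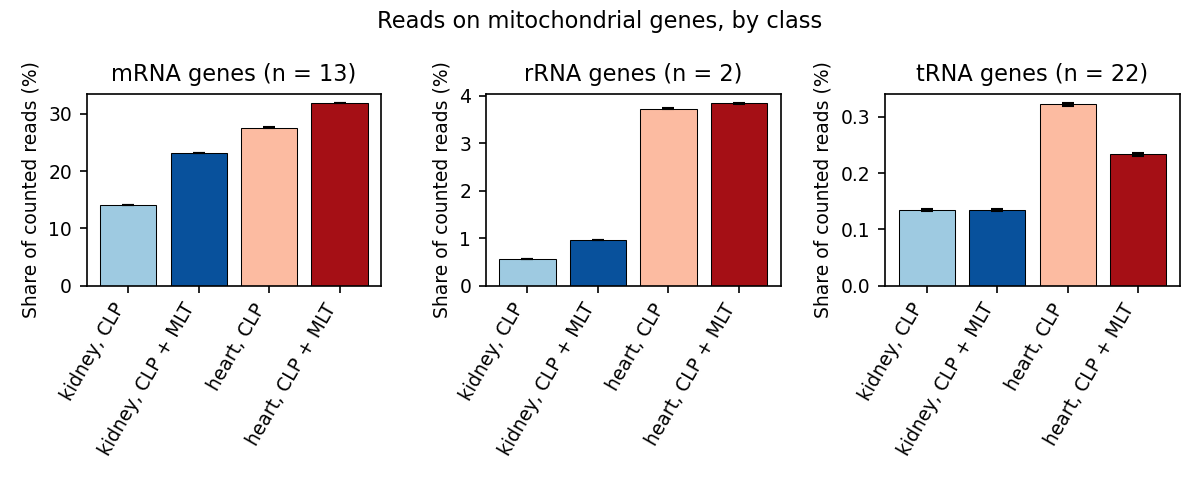
Share of counted reads (%, vertical axis) on the mRNA, rRNA and tRNA genes of the mitochondrial genome in each of the 4 libraries. Bars are single libraries and error bars are 95% counting intervals. The mRNA share was 14.1% and 23.2% in kidney and 27.6% and 31.9% in heart, CLP before CLP + MLT.

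What a count means differs along the mitochondrial genome, because a long stretch of it also stands in the nucleus. By blastn against all other GENCODE transcripts, 7 mRNA genes had an annotated nuclear pseudogene that was at least 99% identical. All 7 pseudogenes lie next to each other in chr1:24611535-24616197 of mm10, and from the first to the last aligned base they span 4653 bases of the mitochondrial genome, chrM:6390-11042. The search asked for at least 100 aligned bases, and the tRNA genes are shorter. Whether the tRNA genes in this span have copies was therefore not tested. The mRNA genes mt-Co2, mt-Atp8, mt-Atp6, mt-Co3, mt-Nd3 and mt-Nd4l lie wholly inside this stretch, mt-Co1 and mt-Nd4 lie partly inside it, and mt-Nd1, mt-Nd2, mt-Nd5, mt-Nd6 and mt-Cytb lie outside. Of the windows of 100 bases that mt-Co3 contains, 99.9% stand unchanged in a nuclear transcript, and the share was 99.5% for mt-Co2 and mt-Atp6, 98.5% for mt-Nd4l, 97.6% for mt-Nd3, 60.8% for mt-Nd4 and 30.8% for mt-Co1. No pseudogene is annotated for mt-Atp8, but the gap between the copies of mt-Co2 and mt-Atp6 is 233 bases long on both chromosomes. Reads with more than 1 alignment stand in a total of their own in the deposited tables and were counted on no gene.

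The gene mt-Nd3 shows how little separates a gene from its copy, and it later gave the largest ratios among the mRNAs. Over 345 aligned bases it differs from the pseudogene Gm28438 (chr1:24612775-24613119, minus strand) at a single position, T3C, counted from the first base of mt-Nd3. The first bases of both are given here in the direction of the transcript, with the differing base in capitals.
mt-Nd3 (chrM:9459-9806, plus strand): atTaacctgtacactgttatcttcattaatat
Gm28438: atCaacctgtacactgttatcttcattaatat

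Neighbouring genes can also share bases. The genes mt-Atp8 and mt-Atp6 overlap in 43 bases (chrM:7927-7969) and leave mt-Atp8 only 161 of its 204 bases for itself. The shared bases are shown because a read on them lies on both genes. The genes mt-Nd4l and mt-Nd4 overlap in 7 bases, and mt-Nd5 and mt-Nd6 in 14 bases on opposite strands.
mt-Atp8 and mt-Atp6, plus strand: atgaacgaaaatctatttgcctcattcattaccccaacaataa

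The tRNA genes are 59 to 75 bases long. The 6 with the most reads or the largest ratios are shown on their own strand, which is the minus strand for each of them, with the anticodon in capitals.
mt-Tn, asparagine (chrM:5089-5159): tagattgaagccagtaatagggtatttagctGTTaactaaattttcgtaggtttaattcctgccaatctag
mt-Ty, tyrosine (chrM:5260-5326): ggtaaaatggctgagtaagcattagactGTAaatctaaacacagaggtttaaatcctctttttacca
mt-Ts1, serine (chrM:6870-6938): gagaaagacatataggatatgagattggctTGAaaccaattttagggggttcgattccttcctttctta
mt-Tq, glutamine (chrM:3772-3842): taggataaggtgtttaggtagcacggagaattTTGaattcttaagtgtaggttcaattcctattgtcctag
mt-Te, glutamic acid (chrM:14071-14139): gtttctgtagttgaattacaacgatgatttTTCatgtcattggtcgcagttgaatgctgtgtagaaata
mt-Tp, proline (chrM:15356-15422): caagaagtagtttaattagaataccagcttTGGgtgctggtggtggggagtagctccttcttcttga

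Counted levels were compared between genes as CPM, that is counts scaled to the size of the library, per kb of bases that no other mitochondrial gene overlaps. In all 4 libraries mt-Co1, the catalytic core of complex IV, had the highest level and mt-Atp8, a small subunit of the ATP synthase, the lowest. The level of mt-Co1 was 24836 CPM per kb in the CLP kidney, 47140 in the CLP + MLT kidney, 77091 in the CLP heart and 89094 in the CLP + MLT heart. That of mt-Atp8 was 220, 461, 157 and 364 CPM per kb in the same order. Second in every library was mt-Cytb, the cytochrome b of complex III, with 24025 and 45435 CPM per kb in kidney and 39682 and 41017 in heart.

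The 6 genes inside the copied stretch were the 6 lowest in every library. Among them mt-Co2, a copper-binding subunit of complex IV, was highest, with 4554, 8681, 8083 and 7169 CPM per kb. The lowest gene outside or partly outside the stretch was mt-Nd5, a proton-pumping subunit of complex I, with 6381, 10793, 9251 and 13251 CPM per kb. When the reads on a gene and on its near-identical pseudogene were summed, mt-Co2 reached 6712 and 13822 CPM per kb in kidney and 13355 in the CLP heart, above mt-Nd5, and 12337 in the CLP + MLT heart, below it. The genes mt-Atp6, mt-Co3, mt-Nd3 and mt-Nd4l gained reads in the same way, while mt-Atp8 has no annotated copy. How many reads of these genes went uncounted because they aligned to both chromosomes was not tested.

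**Figure D2:**
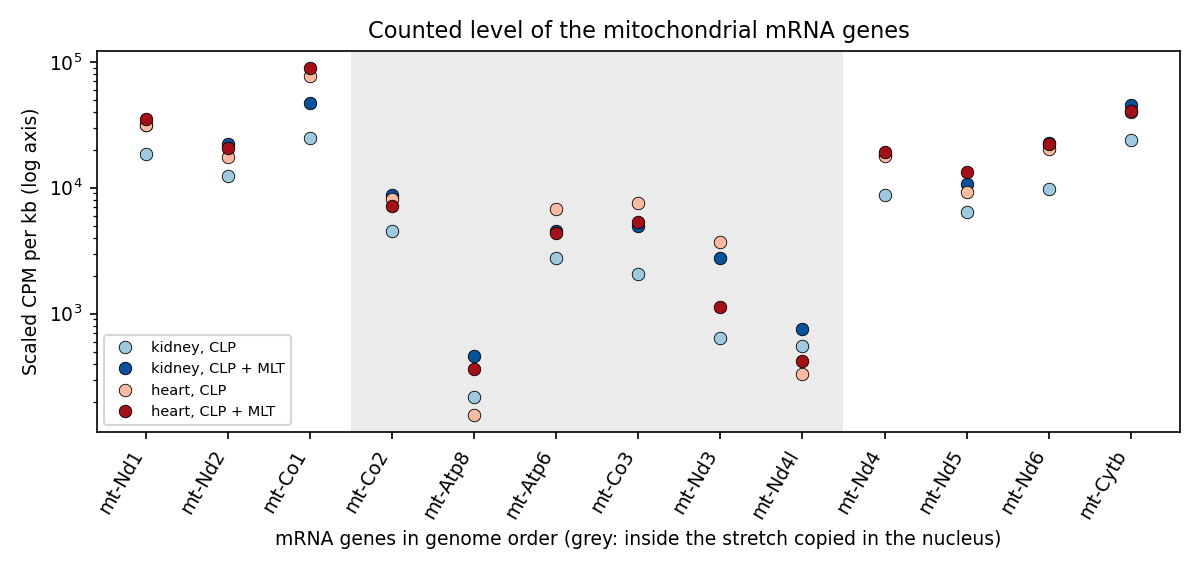
Scaled CPM per kb (vertical log axis) of the 13 mitochondrial mRNA genes in genome order, 1 point per library, with the 6 genes inside the stretch that is copied on chromosome 1 on grey. Levels ran from 157 CPM per kb for mt-Atp8 to 77091 for mt-Co1 in the CLP heart, and the genes on grey were lowest in each library.

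In kidney, all 13 mRNA genes were higher with melatonin. Their median log2 ratio (melatonin over CLP alone) was 0.92, and their summed reads were 1.88-fold higher after TMM scaling. Past a fold of 1.5, which is the fold the study used, were 12 genes higher and 0 lower. Among the 16932 genes whose counts averaged 10 or more, 11.0% were past that fold higher and 11.6% lower, with a median log2 ratio of 0.0029. Scaled by library size only, which moved the median of all genes to −0.19, 9 mRNA genes were past the fold higher and the median of the 13 was 0.73.

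The subunits of complex I, which takes electrons from NADH, had the widest range in kidney. The gene mt-Nd1 had 433506 counts in the CLP kidney and 461909 in the CLP + MLT kidney, a log2 ratio of 0.76. For mt-Nd2 the counts were 316671 and 354510 (0.83), and for mt-Nd5 they were 283312 and 300796 (0.76). For mt-Nd4 they were 292348 and 385153 (1.07). The raw counts differed less than the ratios, since the CLP kidney library was the deeper of the pair. The gene mt-Nd6, which is the only mRNA gene on the minus strand, had 120289 and 177624 counts and a log2 ratio of 1.23. Whether counting used strand is not stated in the sources used here. Reads of mt-Nd6 and of the RNA opposite to it therefore cannot be told apart in either tissue. The largest ratio was that of mt-Nd3, from 5472 to 14712 counts (log2 ratio 2.10, interval 2.05 to 2.14). The smallest was that of mt-Nd4l, from 3931 to 3376 counts (log2 ratio 0.45, interval 0.39 to 0.52), under the fold of 1.5. Both lie in the copied stretch, and outside it the ratios spanned only 0.76 to 1.23.

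Complex III and complex IV, which pass the electrons on to oxygen, were closer together. The gene mt-Cytb had 674238 and 800299 counts in kidney, a log2 ratio of 0.92. The catalytic mt-Co1 had 939502 and 1119224 (0.92), mt-Co2 had 76415 and 91420 (0.93), and mt-Co3, the third subunit encoded in the mitochondrion, had 39672 and 59937 (1.27). For the ATP synthase, the proton channel subunit mt-Atp6 had 42914 and 44499 counts (0.72, but 0.53 and within the fold when scaled by library size only). The small subunit mt-Atp8 had 867 and 1143 (1.07, interval 0.94 to 1.20). All 6 of these genes were past the fold. Summed by complex, the log2 ratios were 0.89 for complex I, 0.92 for complex III, 0.94 for complex IV and 0.73 for the ATP synthase.

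In heart, the mRNA genes did not move together. The median log2 ratio of the 13 genes was 0.14, with 9 genes above 0 and 4 below, and their summed reads were 1.11-fold higher in the CLP + MLT heart. Past the fold were 1 gene higher and 2 lower, against 10.9% higher and 12.6% lower among all 15871 genes tested. The 5 genes outside the copied stretch were all slightly higher, between 0.05 and 0.52, and 4 of the 6 genes inside it were lower.

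Of complex I in heart, mt-Nd1 had 493604 counts without and 540055 with melatonin (log2 ratio 0.14). The counts were 294248 and 345551 for mt-Nd2 (0.24), 395885 and 425360 for mt-Nd4 (0.11), and 167606 and 183171 for mt-Nd6 (0.14). The gene mt-Nd5 stood above these, with 273013 and 388379 counts and a log2 ratio of 0.52, just under the fold. The outermost value was again that of mt-Nd3, now in the other direction, from 21130 to 6414 counts (log2 ratio −1.71, interval −1.75 to −1.67). The gene mt-Nd4l had 1571 and 1992 counts (0.35, interval 0.26 to 0.45).

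Of the other complexes in heart, mt-Cytb had 740155 and 759855 counts (0.05) and mt-Co1 had 1938186 and 2224695 (0.21). Both differed little between the libraries. The remaining subunits of complex IV were lower in the CLP + MLT heart, mt-Co2 with 90146 and 79410 counts (−0.17) and mt-Co3 with 97227 and 68008 (−0.51), within the fold. The genes of the ATP synthase parted, with mt-Atp6 lower, from 70980 to 45257 counts (−0.64), and mt-Atp8 higher, from 413 to 949 (1.21, interval 1.04 to 1.38). The call of mt-Atp6 was narrow: its log2 ratio was −0.58 when scaled by library size only, within the fold, and −0.23 with the reads on its pseudogene added.

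**Figure D3:**
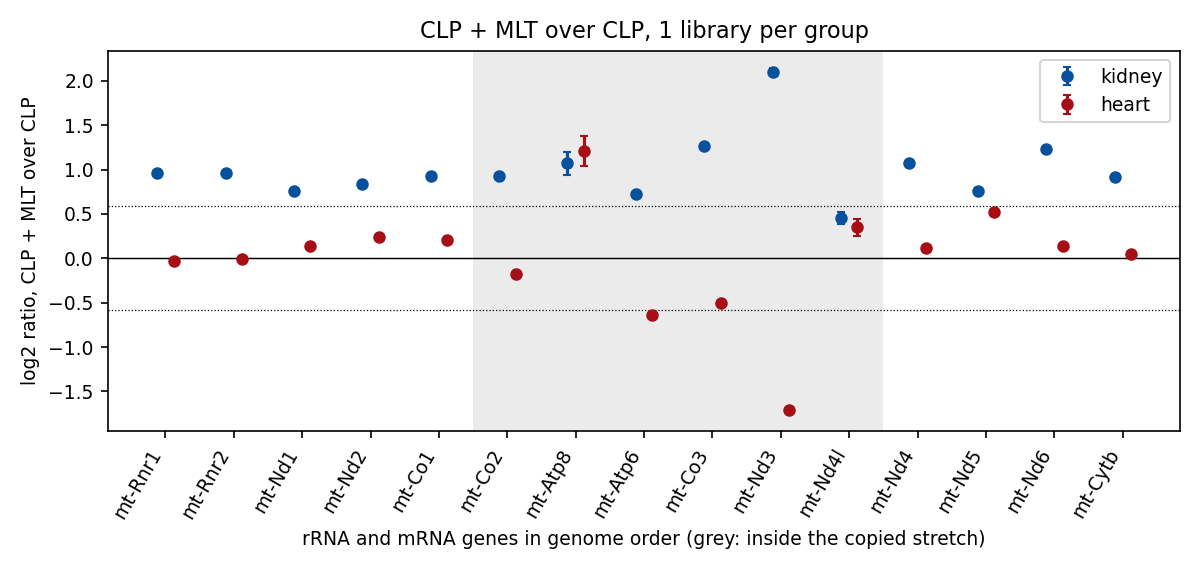
The log2 ratio with over without melatonin (vertical axis) for the rRNA and mRNA genes in genome order, kidney in blue and heart in red, with 95% counting intervals, dotted lines at a fold of 1.5 and the copied stretch on grey. Kidney ratios outside the grey area lay between 0.76 and 1.23 and heart ratios there between −0.03 and 0.52, while inside it mt-Nd3 stood at 2.10 in kidney and −1.71 in heart.

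Heart minus kidney, the log2 ratio was lower in heart for 12 of the 13 mRNA genes, with a median difference of −0.87. The difference was −3.81 for mt-Nd3 (counting interval −3.87 to −3.75), −1.77 for mt-Co3 and −1.36 for mt-Atp6. It was smallest for mt-Nd5 (−0.24) among the genes outside the copied stretch. For mt-Atp8 (0.14, interval −0.07 to 0.35) and mt-Nd4l (−0.10, interval −0.22 to 0.02) the counting intervals included 0, so no difference between the tissues was detectable at this depth. Each tissue was scaled on its own, and the intervals cover counting error only.

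The make-up of the mRNA reads within a library does not depend on scaling. In kidney, mt-Co1 made up 29.1% of the reads on the 13 genes without and 29.3% with melatonin, and mt-Cytb 20.9% and 20.98%. In heart, mt-Co1 made up 42.3% and 43.9%, and mt-Cytb 16.1% and 15.0%. These abundant genes thus held nearly the same share with and without melatonin. The share of mt-Nd3 was 0.169% and 0.386% in kidney and 0.461% and 0.127% in heart, a wide range for both tissues. The share of mt-Nd5 was 8.77% and 7.89% in kidney and 5.96% and 7.66% in heart.

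The pseudogenes of the copied stretch had received many reads. The 7 near-identical copies together held 154188 reads in the CLP kidney, 213447 in the CLP + MLT kidney, 231692 in the CLP heart and 222037 in the CLP + MLT heart. For Gm10925, which is identical to mt-Atp6 over 678 bases, that was 55.6% and 57.2% of the reads on the pair in kidney, and 42.1% and 56.3% in heart. In heart Gm10925 had 51687 and 58302 counts, a log2 ratio of 0.18, while mt-Atp6 was at −0.64. The ratio of a gene and that of its identical copy therefore differed by more than their counting intervals. For mt-Co3 and its copy Gm28437 they were near each other in heart, at −0.51 and −0.49, and apart in kidney, at 1.27 and 1.53.

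For mt-Nd3 the copy moved in the same direction but less. Gm28438 had 2199 and 3218 counts in kidney, a log2 ratio of 1.22, and 4539 and 3565 in heart, a log2 ratio of −0.34. With both summed, the log2 ratio of the pair was 1.90 in kidney and −1.35 in heart, so mt-Nd3 remained past the fold, in opposite directions. Reads with more than 1 alignment, which were counted on no gene, made up 23.6% of all reads of the CLP kidney and 32.6% of the CLP + MLT kidney, against 38.6% and 37.0% in heart. That share moved with the mitochondrial share in kidney but not in heart. In heart it was lower with melatonin, while the share of counted reads on mitochondrial genes was higher (31.6% and 36.0%). How much of the reads with more than 1 alignment came from the copied stretch was not tested.

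**Figure D4:**
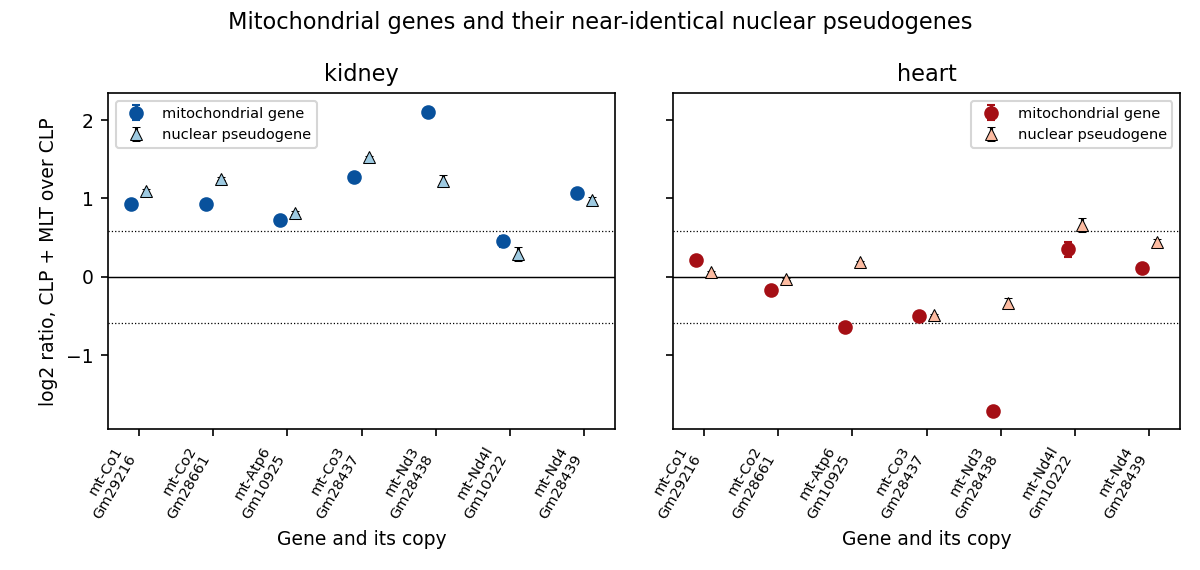
The log2 ratio with over without melatonin (vertical axis) of 7 mitochondrial genes (circles) and of the nuclear pseudogene that is at least 99% identical to each (triangles), with 95% counting intervals and dotted lines at a fold of 1.5. In heart mt-Nd3 stood at −1.71 and Gm28438 at −0.34, and mt-Atp6 at −0.64 and Gm10925 at 0.18.

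The 2 rRNA genes encode the RNAs of the small and the large subunit of the mitochondrial ribosome, and neither has a copy of at least 95% identity over 100 bases among the annotated transcripts. The gene mt-Rnr1 (chrM:70-1024) had 57771 counts in the CLP kidney and 70363 in the CLP + MLT kidney, a log2 ratio of 0.96. For mt-Rnr2 (chrM:1094-2675) the counts were 71725 and 87581, also a log2 ratio of 0.96. Both rRNAs were thus past the fold in kidney and close to the median of the mRNAs. In heart mt-Rnr1 had 217199 and 211962 counts and mt-Rnr2 had 402163 and 398704, with log2 ratios of −0.03 and −0.0026, which turned to 0.03 and 0.05 when scaled by library size only. Per kb, mt-Rnr1 stood at 2466 and 4785 CPM in kidney and at 13949 and 13706 in heart.

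The reads counted on tRNA genes split by strand. The 8 tRNA genes of the minus strand held 30690 reads in the CLP kidney, 21847 in the CLP + MLT kidney, 52512 in the CLP heart and 35512 in the CLP + MLT heart. The 14 tRNA genes of the plus strand held 191, 174, 1127 and 1600 reads in the same order. Of the 22 genes, 9 in kidney and 10 in heart averaged 10 counts or more, and 8 had no read in both libraries of kidney, as had 8 in heart. The sources used here do not state whether counting used strand, so for the minus-strand genes reads of the tRNA and of the RNA opposite to it cannot be told apart. Of the reads on a gene or on none, 52.1% to 52.6% per library were on none. The part of the strand setting in that share and in the split of the tRNA reads was not tested.

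**Figure D5:**
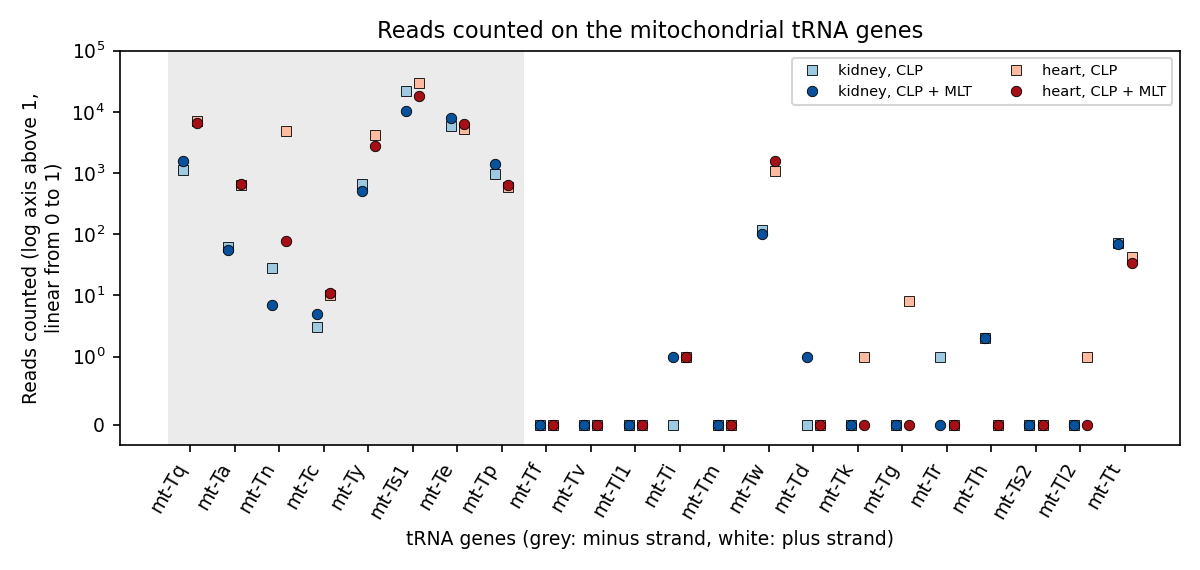
Reads counted (vertical axis, logarithmic above 1 and linear from 0 to 1) on the 22 mitochondrial tRNA genes, minus-strand genes on grey, with squares for CLP and circles for CLP + MLT. The highest counts were those of mt-Ts1, and mt-Tn in heart had 4964 reads without and 78 with melatonin.

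In kidney 4 of the 9 tested tRNA genes were past the fold higher and 1 lower, against 11.0% and 11.6% of all genes tested. The median log2 ratio of the 9 was 0.50, with 7 above 0. Higher were mt-Tp, from 965 to 1425 counts (log2 ratio 1.23), mt-Tq, from 1119 to 1582 (1.17), mt-Te, from 5965 to 7855 (1.07), and mt-Tt, with only 72 and 69 counts (0.61). The call of mt-Tt was lost when scaled by library size only (0.41) and with a prior count of 5 (0.57), which left 3 higher. The ratios of mt-Tp, mt-Tq and mt-Te lay above the ratios of the rRNAs. The lower gene was mt-Tn, with 28 and 7 counts, and its interval of −2.77 to −0.10 was wide. The most abundant tRNA row, mt-Ts1, behaved unlike its neighbour mt-Co1, with 21882 and 10405 counts and a log2 ratio of −0.40 (−0.43 to −0.37), against 0.92 for mt-Co1. It was past the fold, at −0.60, when scaled by library size only. The gene mt-Ts1 overlaps the last 3 bases of mt-Co1 on the other strand and lies within the span of the copied stretch. The gene mt-Tw had 116 and 101 counts (0.47), mt-Ty had 665 and 512 (0.29), and the other tested gene, mt-Ta, had 63 and 56 (0.50).

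In heart 0 of the 10 tested tRNA genes were past the fold higher and 3 were lower, against 10.9% and 12.6% of all genes tested. Their median log2 ratio was 0.02, with 5 above 0 and 5 below. The gene mt-Tn had 4964 counts in the CLP heart and 78 in the CLP + MLT heart, a log2 ratio of −5.97 (−6.32 to −5.66), the largest difference of any mitochondrial gene. Its neighbours in the same cluster of minus-strand tRNAs did not share it: mt-Ta (chrM:5018-5086) had 633 and 672 counts and mt-Tc (chrM:5192-5257) had 10 and 11. The CLP heart library alone was high in mt-Tn, since both kidney libraries held at most 28 reads. The gene mt-Ts1 had 29762 and 18185 counts (−0.70), and mt-Ty had 4231 and 2794 (−0.59), at the edge of the fold and within it, at −0.53, when scaled by library size only. The gene mt-Ts1 was thus lower with melatonin in both tissues, past the fold in heart.

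The remaining named tRNA genes of heart lay within the fold. The counts were 6984 and 6688 for mt-Tq (−0.05), 5344 and 6443 for mt-Te (0.28), and 584 and 641 for mt-Tp (0.14). The plus-strand gene mt-Tw, for tryptophan, had 1073 and 1565 counts (0.55). It was past the fold, at 0.61, when scaled by library size only.

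Mitochondrial RNA is made and matured by proteins that the nucleus encodes, and these were counted from lists written from general knowledge. Of the 17 genes for transcription and replication of mitochondrial DNA, 2 were past the fold higher and 0 lower in kidney, with a median log2 ratio of 0.10, and 1 was higher and 1 lower in heart, with a median of 0.07. In kidney the gene of this list named by its size was Mterf1a, a transcription termination factor, with 120 and 138 counts (0.87). The other was its paralog Mterf1b, with 57 and 76 counts (1.08), and reads of such near-identical paralogs are hard to assign. In heart the lower gene was Mrpl12, which encodes a ribosomal protein that also binds the mitochondrial RNA polymerase, with 1046 and 571 counts (−0.86), and the higher one was Polg2, for a subunit of the DNA polymerase, with 38 and 62 (0.71). Among all genes tested, 11.0% were past the fold higher and 11.6% lower in kidney, and 10.9% and 12.6% in heart.

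Of the 16 genes found for RNA processing and polyadenylation, 0 were past the fold in kidney, and in heart Fastkd3 was higher (104 and 158 counts, 0.61) and Hsd17b10, a subunit of the RNase P that cuts tRNA ends, was lower (880 and 468 counts, −0.90). Of the 5 genes for RNA decay, 0 were past the fold in kidney, and in heart Endog was lower (478 and 274 counts, −0.79). Of the 8 genes for rRNA modification, 1 was higher and 1 lower in kidney, Mterf4 (733 and 773 counts, 0.75) and Trmt61b (154 and 51 counts, −0.92), and 2 were higher in heart, Mrm2 (40 and 71 counts, 0.83) and Trmt61b (25 and 47 counts, 0.91). Of the 15 genes for tRNA modification, 0 were past the fold in either tissue. These counts stand against 11.0% higher and 11.6% lower among all genes in kidney, and 10.9% and 12.6% in heart.

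The 20 genes for charging tRNAs with amino acids had a median log2 ratio of 0.05 in kidney and −0.24 in heart. Past the fold were 1 gene higher and 1 lower in kidney (11.0% and 11.6% of all genes), and 2 higher and 3 lower in heart (10.9% and 12.6% of all genes). The leucine enzyme gene Lars2 was higher in kidney, from 2796 to 4698 counts (1.42), and lower in heart, from 7475 to 3409 (−1.12). No other gene of the list had more than 918 counts in the CLP heart, and why Lars2 stood so far above them was not tested. The asparagine enzyme gene Nars2, whose product charges the tRNA of mt-Tn, had 314 and 126 counts in kidney (−0.64). In heart, the tissue with the large difference in mt-Tn, Nars2 had 92 and 73 counts (−0.32, interval −0.79 to 0.14), within the fold. In heart Fars2, for phenylalanine, had 387 and 166 counts (−1.21), and Gatb, for a subunit of the enzyme that completes glutamine tRNA, had 706 and 404 (−0.79). Qrsl1, another subunit of that enzyme, had 157 and 258 (0.72), and Mars2, for methionine, had 88 and 136 (0.63). Lars2 was the gene of these lists with the largest ratio in kidney.

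Markers of the labelled tissues were present in each library, and several moved with the groups. In bulk tissue, fewer cells of a type and less RNA per cell cannot be told apart. In kidney the 6 kidney markers summed to 6669 CPM without and 6946 with melatonin after TMM scaling, and to 7135 and 6492 CPM by library size only, so the direction turned with the scaling. Of them Slc34a1, a phosphate transporter of the proximal tubule, had a log2 ratio of 0.63 and Lrp2, an uptake receptor of the same cells, of 0.41. In heart the 6 heart markers summed to 24679 and 17676 CPM by library size, as for the sums that follow, whose directions were the same after TMM scaling, and 2 of them were past the fold lower, Tnni3 (−1.27) and Nppa (−1.17). Kidney markers in heart summed to 99.0 and 191 CPM, and 3 of the 5 tested were past the fold higher, among them Slc34a1 with 587 and 1454 counts. Among all genes tested in heart, 10.9% were past the fold higher and 12.6% lower. Heart markers in kidney summed to 8.42 and 12.1 CPM. Red cell markers summed to 70.1 and 75.3 CPM in kidney and to 247 and 224 in heart. Leukocyte markers summed to 53.9 and 99.0 CPM in kidney and to 110 and 178 in heart. Lyz2, the lysozyme gene of macrophages, held more reads than any other of them and was higher in both (1.81 and 1.13). S100a9, a neutrophil gene, was lower (−0.74 and −0.80). Cd68 was at −0.49 and −0.03, and Ptprc at 0.95 and 0.16. The median log2 ratio of the 5 tested leukocyte markers was −0.11 in kidney and −0.03 in heart, with 2 above 0 in each tissue. No marker of the lists was at 0 in any library. The part of these markers in the ratios of the mitochondrial genes was not tested.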

How the data were processed

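RNA-seq counts of 4 libraries, 1 per group, were analysed. Reads had been trimmed (trim-galore) and aligned to mm10 with HISAT2 2.1.0 by the authors, who deposited raw counts of reads per gene. HTSeq is named in the submitters' processing notes, without its version, mode or strand setting. Which annotation was used is not stated there. The last 5 rows of a table are totals without a gene and did not enter library sizes. Reads on no gene made up 29.6% to 37.7% of all reads. Positions, names and transcript sequences came from GENCODE release M21, whose build GRCm38 is mm10, and 54349 identifiers had a name there.

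Libraries were scaled within each tissue with TMM (R 4.3.3, edgeR 4.0.16). Log2 ratios were taken with over without melatonin after adding a prior count of 0.5, adjusted for library size, and genes averaging 10 counts or more in a tissue were kept. With 1 library a group no dispersion can be estimated, so the fold of 1.5 that the authors applied in edgeR was kept and no p-value was computed. Intervals are 95% exact Clopper-Pearson intervals on the reads (scipy 1.17.1). For the difference between heart and kidney a normal interval on log counts was used. Reads duplicated by PCR are not separate molecules, and the intervals cover counting error only.

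Nuclear copies were searched with blastn 2.17.0 among all other transcripts, at 95% identity or more over at least 100 bases. The nuclear genome itself was not used here. Alternatives were scaling by library size, DESeq2 1.42.0 size factors, the upper quartile or nuclear genes only, other filters, a prior count of 5, a fold of 2, and the sum of a gene and its copy, which was chosen after seeing the data. The ratios and calls were tested on simulated data. The text names all mRNA and rRNA genes, tRNA genes that averaged 100 counts or more in a tissue, and up to 4 genes past the fold per nuclear list with such a mean. The tRNA genes mt-Tn in kidney, mt-Tt, mt-Tc and mt-Ta in kidney were added after their values were seen. So were the list genes Mterf1b, Polg2, Mrm2, Trmt61b in heart, Nars2 in heart and Mars2, and the named markers. The members and lists were chosen with earlier results of these data known. The gene Fastkd5 of the lists had no row under that name.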

Additional observations from a re-analysis of the deposited data

Results flagged for a closer look

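The log2 ratios of mt-Nd3 and mt-Atp6 lay past the fold of 1.5 on opposite sides in kidney and heart. Heart minus kidney, the difference was −3.81 for mt-Nd3 and −1.36 for mt-Atp6. Each rests on 1 library per group, and the difference between the tissues was not tested against any spread between mice. Both genes lie in the stretch that is copied on chromosome 1. With the reads on the copy added, the ratios of mt-Nd3 were 1.90 in kidney and −1.35 in heart, and those of mt-Atp6 were 0.78 and −0.23, so mt-Atp6 was then within the fold in heart. Scaled by library size only, mt-Atp6 was within the fold in both tissues, at 0.53 in kidney and −0.58 in heart, and mt-Nd3 was past it in both, at 1.90 and −1.65.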

How the results depend on the processing

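No paired analysis was possible because each group held 1 library, and for the same reason no library could be left out. In kidney the median of the mRNA genes was 0.73 when scaled by library size only, 0.95 by the upper quartile and 0.83 over the 5 genes outside the copied stretch, and the median of the rRNA genes was 0.76 and 0.98 under the first 2 of these. At a fold of 2, 5 mRNA genes and 0 rRNA genes were past it higher. The tRNA genes past the fold lower numbered 2 by library size, 2 with no filter and 0 where genes had to average 50 counts, and 7 were higher with no filter. In heart the median of the mRNA genes was 0.19 by library size and 0.19 by the upper quartile, and that of the rRNA genes was 0.042 and 0.034, above 0. The mRNA genes past the fold lower numbered 1 by library size, 1 at a fold of 2 and 1 with copies summed. Of the tRNA genes, 1 was higher by library size and 1 by the upper quartile, while 6 were lower with no filter and 1 at a fold of 2. The tRNA genes added with no filter averaged under 10 counts. The shares of all genes past the fold given above hold for the main setting. None is given here for the other settings, so these counts cannot be set against all genes. With all reads as the denominator, mitochondrial genes held 5.10% and 7.29% in kidney and 8.61% and 10.04% in heart, CLP before CLP + MLT. DESeq2 size factors, scaling on nuclear genes and a prior count of 5 moved none of 49 ratios by more than its counting interval. With 1 library a group, counting error is the only error that depth can show.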

Other observations

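Across the 13 mRNA genes, which share their libraries and lie on the same precursors, the kidney log2 ratio correlated with GC content at Pearson r = −0.57 and with position along the genome at r = 0.18. In heart these values were 0.06 and −0.04, and the share of copied windows correlated at r = −0.63, against 0.20 in kidney. That share was entered as 0 for mt-Atp8, which lies inside the copied stretch but has no annotated copy. Since mt-Atp8 had the highest heart ratio (1.21), the correlation in heart depends on this entry. The kidney and heart ratios correlated at r = −0.65 (Spearman −0.38), and mt-Nd3 lies at the end of both. The level per kb as a share of all 13 genes was ordered almost alike in the CLP kidney and the CLP heart, with a Spearman correlation of 0.98. These are descriptions across genes, which are not independent replicates.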
